A study of Mus musculus with 5 samples.

Results

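Tumours grown from SSM2 cells in the mouse mammary gland were examined for 10 genes that mark tissue-resident macrophages: Lyve1, Cd163, Mrc1, Folr2, Timd4, Cbr2, F13a1, Maf, Stab1 and Selenop. The 10 genes were taken as a given list, which was chosen with earlier results of these data known. All 10 were matched by symbol among the 24860 gene symbols measured. They were followed by macrophage state, by treatment and by co-detection in single cells. The progesterone group held 3 single-cell libraries and the placebo group held 2. Mice of 10 to 12 weeks received 100000 SSM2 cells into the left mammary gland, together with a 60 mg pellet with a release time of 60 days under the skin of the neck, loaded with progesterone or placebo, and tumours were taken 28 to 62 days later. SSM2 is a cell line from a hormone receptor-positive mouse mammary tumour, and every tumour of both groups came from this line. The sample titles put Progesterone 1 and Placebo 1 in batch 1, and Progesterone 2, Progesterone 3 and Placebo 2 in batch 2. The labels give no strain of the host and no animal for a library. Since Progesterone 2 and 3 carry 1 identifier with an added L or R in their deposited names, they could be both sides of 1 animal, and p-values here speak only of how far these libraries lie apart.

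Macrophages that settle in a tissue and stay there carry a shared equipment for clearing debris, sugars, iron-bearing haemoglobin complexes and dying cells. Lyve1 is a receptor for the matrix sugar hyaluronan, Cd163 takes up haptoglobin-haemoglobin complexes, Mrc1 is the mannose receptor, Stab1 is the scavenger receptor stabilin-1, Folr2 is the beta form of the folate receptor, and Timd4 binds phosphatidylserine on dying cells. Cbr2 is a carbonyl reductase, F13a1 encodes the A subunit of coagulation factor XIII, a transglutaminase that cross-links fibrin, Selenop is a secreted selenium carrier, and Maf is a leucine zipper transcription factor of macrophages and some T cells. Retnla, an interleukin-4 responsive secreted protein, and the complement genes C1qa, C1qb and C1qc were used only to sort macrophages into states.

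On the GRCm38 assembly the receptor genes lie at chr7:110850607-110863239 (Lyve1), chr6:124304656-124330527 (Cd163), chr2:14229392-14332057 (Mrc1), chr7:101839988-101857194 (Folr2), chr11:46810800-46844332 (Timd4) and chr14:31139013-31168641 (Stab1). The remaining members lie at chr11:120729489-120732114 (Cbr2), chr13:36867178-37050244 (F13a1), chr8:115682942-115707794 (Maf) and chr15:3268547-3280508 (Selenop). Every member is annotated as protein-coding. RefSeq promoter windows on GRCm38.p6, of 250 bases before to 50 bases after a start, were matched for 8 of the 10 members, with 12 windows in all. The windows shown are those of Cd163 and Mrc1, receptors lower under progesterone in C1q-high cells below, and of Folr2 and Cbr2, the pair most tied in single cells of Progesterone 2 and 3. Each is written 5′ to 3′ on the strand of its gene, and capitals mark a match to a MAF half-site (TGCTGA, either strand) or to a STAT6 element (TTC and GAA with any 4 bases between, either strand).
Cd163, chr6:124304401-124304700, + strand: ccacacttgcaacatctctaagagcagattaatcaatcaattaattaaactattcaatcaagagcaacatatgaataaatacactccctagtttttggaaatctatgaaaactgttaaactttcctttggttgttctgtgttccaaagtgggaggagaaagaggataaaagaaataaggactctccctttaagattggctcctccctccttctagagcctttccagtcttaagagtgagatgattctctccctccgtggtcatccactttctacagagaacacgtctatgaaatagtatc
Mrc1, chr2:14229164-14229463, + strand: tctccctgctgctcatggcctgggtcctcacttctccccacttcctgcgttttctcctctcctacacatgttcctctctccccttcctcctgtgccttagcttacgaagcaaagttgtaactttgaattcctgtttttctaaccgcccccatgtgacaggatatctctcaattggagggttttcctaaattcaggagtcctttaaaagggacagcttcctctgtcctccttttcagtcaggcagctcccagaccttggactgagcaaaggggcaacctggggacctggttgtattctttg
Folr2, chr7:101857141-101857440, - strand: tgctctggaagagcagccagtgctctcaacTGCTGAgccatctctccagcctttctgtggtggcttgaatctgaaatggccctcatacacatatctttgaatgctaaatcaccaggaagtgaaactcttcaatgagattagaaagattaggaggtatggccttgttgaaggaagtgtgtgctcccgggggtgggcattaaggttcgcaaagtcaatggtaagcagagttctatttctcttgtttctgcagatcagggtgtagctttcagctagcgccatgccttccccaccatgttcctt
Cbr2, chr11:120731972-120732271, - strand: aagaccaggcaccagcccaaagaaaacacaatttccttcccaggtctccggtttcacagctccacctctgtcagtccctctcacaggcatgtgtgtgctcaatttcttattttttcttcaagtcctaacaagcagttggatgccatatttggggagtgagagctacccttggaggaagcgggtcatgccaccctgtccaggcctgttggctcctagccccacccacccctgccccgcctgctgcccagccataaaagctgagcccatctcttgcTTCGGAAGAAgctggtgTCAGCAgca

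A MAF half-site stood in 5 of the 12 windows, in both of Folr2 and in those of Timd4, Cbr2 and Stab1, against 19.5% of all 32851 promoter windows. In the printed windows it lay 220 bases before the Folr2 start and 41 bases after the Cbr2 start. A STAT6 element stood in 2 of the 12 windows, that of Cbr2 and 1 of Selenop, against 6.95% of all windows. A steroid receptor element (GNACA and TGTNC with any 3 bases between, both strands searched) stood in 0 of the 12 windows and in 0.475% of all windows. The searched motifs do not overlap one another in letters, and a match here is a description of these letters only.

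After removal of predicted doublets 23018 cells were kept, of which 2502 were macrophage-like: 294, 969 and 593 in Progesterone 1, 2 and 3, and 15 and 631 in Placebo 1 and 2. Libraries held 23409215 to 204786073 unique molecular identifiers (UMIs, each a tagged mRNA molecule read at its 3' end), and macrophage-like cells held 5918580, 13749223 and 7691297 UMIs in the progesterone libraries and 299631 and 9314827 in the placebo libraries. All 8 fixed macrophage markers were detected in the macrophage-like cells of every library. Placebo 1 stood apart, with 4141 T cells, 161 B cells and 171 epithelial cells among 4744 cells kept. Its labels call it a tumour, how much of the sampled material was tumour tissue was not tested, and every Placebo 1 value carries that doubt. Its 15 macrophage-like cells allow little: a member with 0 UMIs there could still be at 10.0 CPM (UMIs scaled to a common library total), the level of 3 UMIs. Libraries shared 2 to 12 cell barcodes per pair. The macrophage-like class takes in monocyte-like cells, since the monocyte markers summed to 2033, 334 and 433 CPM in Progesterone 1, 2 and 3 and to 5650 and 911 CPM in Placebo 1 and 2. Levels below are compared for a gene between samples and not between genes.

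Across the tumour, most members were macrophage genes. Of all UMIs counted in the series, the macrophage-like cells held 1545 of Cd163, against 36 in epithelial cells and 0 in endothelial cells. F13a1 had 22057 UMIs in macrophage-like cells and 639 in epithelial cells, and Mrc1 had 19848 and 348. Folr2 and Cbr2 were also counted in epithelial cells, at 1631 and 1081 UMIs against 3608 and 2508 in macrophage-like cells, but the epithelial class was far larger. After each cell was thinned to 3000 UMIs, 1.01% to 2.44% of epithelial cells had a Folr2 UMI, against 8.28% to 28.5% of macrophage-like cells in the same 4 libraries. In Progesterone 3, epithelial cells held 596 Folr2 and 487 Cbr2 UMIs, against 535 and 180 in macrophage-like cells, and 28 Mrc1 UMIs against 2071. Macrophage-like cells held more of both Folr2 and Cbr2 in Progesterone 1, Progesterone 2 and Placebo 2. Median depth before thinning was 6363 to 48620 UMIs in those epithelial cells and 12066 to 19813 in macrophage-like cells. Free RNA in droplets can give such shares in cells that do not express a gene, and its part here was not tested.

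Lyve1, Maf, Selenop and Stab1 were shared with other cell types. Lyve1, which is also a marker of lymphatic vessels, reached 1881 CPM in endothelial cells of Progesterone 1, 560 CPM in those of Placebo 1 and 22.7 CPM in those of Placebo 2, the 3 libraries with at least 10 such cells. Endothelial markers were not abundant in macrophage-like cells, where 9 of them summed to 37.2, 14.5 and 13.7 CPM in Progesterone 1, 2 and 3 and to 10.0 and 23.9 CPM in Placebo 1 and 2, with 2 or 3 of the 9 at 0 (7 in Placebo 1). Maf was at 113, 131 and 237 CPM in T cells of the progesterone libraries and at 38.9 and 199 CPM in those of the placebo libraries. Selenop was found in T cells at 28.01 to 75.4 CPM over all libraries, and Stab1 in endothelial cells at 102 to 567 CPM over 3 libraries.

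Timd4 in batch 2 was counted mainly in myeloid cells that were kept out of the macrophage-like class. Progesterone 2 had 404 Timd4 UMIs, Progesterone 3 had 244 and Placebo 2 had 387, and 75.2%, 87.7% and 69.0% of these came from a myeloid sub-cluster with Ccr7 among its top genes and from another led by Clec9a and Xcr1, which were kept out of the macrophage-like class. The sub-cluster with Ccr7 scored 3.58 for macrophage and 3.44 for dendritic markers, so its place outside the class follows from the rule for close scores. Over both sub-clusters Timd4 reached 221 and 171 CPM in Progesterone 2 and 3 and 277 CPM in Placebo 2. Macrophage-like cells held 4.87 and 1.04 CPM in Progesterone 2 and 3 and 10.8 CPM in Placebo 2, so its values below rest on few UMIs.

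Over all macrophage-like cells, 9 of the 10 members were highest in Placebo 2, and Selenop was highest in Progesterone 2. Lyve1 had 7.43, 2.11 and 2.08 CPM in Progesterone 1, 2 and 3, against 0 and 151 CPM in Placebo 1 and 2. In Progesterone 1, a single Retnla-high cell held 39 of the 44 Lyve1 UMIs. Cd163 had 8.45, 6.11 and 7.41 CPM in the progesterone libraries, against 0 and 145 CPM in the placebo libraries. For both receptors Placebo 2 alone was high. Placebo 1 was at 0, but 3 UMIs there would be 10.0 CPM, above every progesterone value, so whether the groups overlap is not shown.

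Mrc1 had 272, 297 and 269 CPM in Progesterone 1, 2 and 3, against 287 and 1287 CPM in Placebo 1 and 2. Folr2 had 47.6, 81.5 and 69.6 CPM in the progesterone libraries, against 0 and 179 CPM in the placebo libraries. Cbr2 had 20.4, 52.9 and 23.4 CPM in the progesterone libraries, against 10.0 and 158 CPM in the placebo libraries. For Folr2 and Cbr2 the placebo libraries lay on either side of the progesterone libraries, of which Progesterone 2 was the highest, and for Mrc1 Placebo 1 lay among them.

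The transcription factor Maf had 66.1, 74.1 and 60.1 CPM in Progesterone 1, 2 and 3, against 16.7 and 184 CPM in Placebo 1 and 2. F13a1 had 813, 379 and 286 CPM in the progesterone libraries, against 577 and 1037 CPM in the placebo libraries. Its batch 1 libraries were both above its progesterone libraries of batch 2, and the groups overlapped. Stab1, at 119, 125 and 98.3 CPM in the progesterone libraries and 80.1 and 150 CPM in the placebo libraries, and Selenop, at 269, 517 and 408 CPM against 197 and 484 CPM, had ranges that overlapped between treatments.

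**Figure D1:**
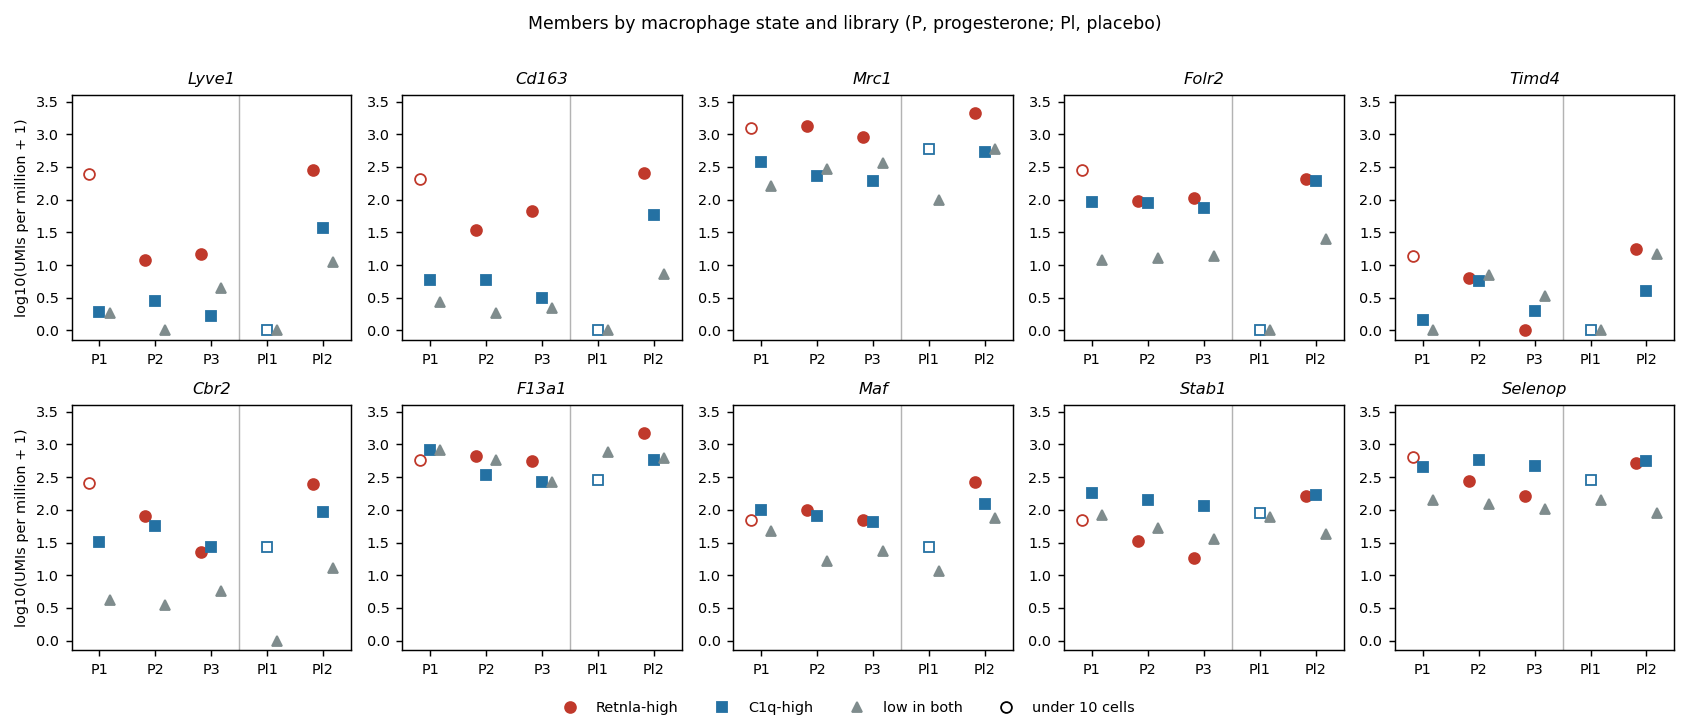
Levels of the 10 members, as log10(CPM + 1), in macrophage-like cells of each library by state (circles Retnla-high, squares C1q-high, triangles low in both, open symbols under 10 cells), with progesterone libraries left of placebo libraries. Placebo 2 lies above the batch 2 progesterone libraries for Lyve1, Cd163 and Mrc1 in both states, while Selenop in C1q-high cells has 572 and 475 CPM in Progesterone 2 and 3 and 550 CPM in Placebo 2.

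With both batches in 1 fit, no member passed the test for progesterone over placebo. In edgeR's quasi-likelihood test with a batch term and Benjamini-Hochberg adjustment over 11848 genes, 0 of 10 members were called, against 1.14% of all genes (135 genes; 0.447% higher and 0.692% lower), with 1 member, Timd4, at an unadjusted p under 0.05 and 0 called by DESeq2. The log2 ratios were -4.73 ± 1.59 (SE) for Lyve1 (adjusted p = 0.409), -3.60 ± 1.09 for Cd163 (0.355) and -1.37 ± 0.54 for Mrc1 (0.400). The members' median log2 ratio was -1.08, where that of all genes was 0.03. Leaving out Placebo 2 turned 8 of the 9 negative members positive and left Mrc1 at -0.05, with Folr2 at 7.34 and Maf at 1.99. That contrast rests on Progesterone 1 against the 15 macrophage-like cells of Placebo 1. They held 0 UMIs of Lyve1, Cd163, Folr2 and Timd4, 3 of Cbr2 and 5 of Maf, so ratios against 0 are no bound. The level of 3 UMIs there, 10.0 CPM, lies above Progesterone 1 for Lyve1 and Cd163, so an opposite direction in batch 1 is not shown for them.

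Batch 2 was also fitted alone, a choice made after the values above were seen, so the fit restates them and is no independent support. Its single placebo library gives no spread of the placebo group. It called 8 of 10 members lower and 0 higher, against 10.1% of all genes called lower, 8.31% higher and 18.4% either way. The log2 ratios of these 8 were -6.01 for Lyve1, -4.37 for Cd163, -2.14 for Mrc1, -1.98 for Cbr2, -1.63 for Timd4, -1.60 for F13a1, -1.41 for Maf and -1.20 for Folr2. Stab1 had a log2 ratio of -0.39 and Selenop of -0.03, and neither passed. Without the sub-cluster led by Cd209f and Cd209g described below, the log2 ratios were -4.39 for Lyve1, -4.01 for Cd163 and -1.93 for Mrc1. They were -1.30 for F13a1, -1.09 for Maf, -0.91 for Folr2, 0.01 for Stab1 and 0.30 for Selenop. Cbr2 (-1.32) and Timd4 (-0.63) were no longer called.

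In batch 1, with 1 library a group and no test, Progesterone 1 was above Placebo 1 in 5 members with UMIs in both (Cbr2, F13a1, Maf, Stab1 and Selenop) and below it in Mrc1. Other cell type markers moved with treatment in batch 2: epithelial markers summed to 723 and 646 CPM in macrophage-like cells of Progesterone 2 and 3 and to 1210 CPM in Placebo 2, with 2 of 9 at 0 in each, and fibroblast markers to 22.9 and 18.6 CPM and to 56.8 CPM. Monocyte markers, given above, were also higher in Placebo 2 than in its batch 2 partners. Their part in the result was not tested.

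Macrophage-like cells were then sorted into states by genes outside the 10. Retnla-high cells had at least 5 Retnla UMIs per 10000, and C1q-high cells had fewer and at least 20 UMIs of the 3 C1q genes per 10000. Retnla-high cells made up 2.38%, 5.57% and 8.26% of macrophage-like cells in Progesterone 1, 2 and 3 (95% Clopper-Pearson intervals 0.963 to 4.84, 4.21 to 7.21 and 6.18 to 10.8), against 0 of 15 cells in Placebo 1, which allows a share of up to 20%, and 42.6% in Placebo 2 (38.7 to 46.6). C1q-high cells made up 32.3%, 83.3% and 78.9% in the progesterone libraries, against 33.3% and 41.8% in the placebo libraries. In batch 2 the Retnla-high share in Placebo 2 lay outside both progesterone intervals, which cover counting error only. Over libraries the mean difference was -15.9 percentage points for Retnla-high (exact permutation test, two-sided, p = 0.5) and 27.3 for C1q-high (p = 0.4), in a design that cannot go below 0.1. Within batches the p-values were 0.333 for both, where the smallest is 0.167. Near the cuts lay 73 of 2502 cells, between 2 and 10 Retnla UMIs per 10000, and 246 of 2123, between 10 and 40 C1q UMIs. The Retnla-high state is small, and a Retnla cut of 10 acted unequally on it. It left 5 of 7, 50 of 54 and 34 of 49 Retnla-high cells in Progesterone 1, 2 and 3, and 250 of 269 in Placebo 2.

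Between states, Retnla-high cells had more Lyve1, Mrc1, F13a1 and Maf than C1q-high cells of the same library. With 3 libraries giving both states, the test paired by library called 4 of 10 members higher and 0 lower, against 10.5% of all 11058 genes called higher, 11.1% lower and 21.6% either way. Mrc1 had 1333 CPM in Retnla-high and 232 CPM in C1q-high cells of Progesterone 2, 922 and 189 CPM in Progesterone 3, and 2083 and 533 CPM in Placebo 2. The sum of the monocyte markers moved with this comparison. It was 994, 1555 and 1038 CPM in Retnla-high cells of Progesterone 2, Progesterone 3 and Placebo 2, against 197, 192 and 319 CPM in C1q-high cells. Of the 8 markers 0 to 2 were at 0. They did not all move alike: Ifitm6 and Vcan were higher in Retnla-high cells, and Ly6c2 was lower, as given below. Macrophage markers, which were all detected, summed to 1917, 1359 and 2500 CPM in Retnla-high cells, against 5039, 4339 and 4913 CPM in C1q-high cells, and the part of either in the result was not tested. The mannose receptor was higher in the Retnla-high state in 3 of 3 libraries, by a log2 ratio of 2.26 ± 0.13 (SE; adjusted p = 3.27e-07, edgeR's quasi-likelihood test with Benjamini-Hochberg adjustment).

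Lyve1 followed the same order at lower levels in the progesterone libraries. It had 10.8 CPM in Retnla-high and 1.78 CPM in C1q-high cells of Progesterone 2, 13.97 and 0.646 CPM in Progesterone 3, and 282 and 35.9 CPM in Placebo 2. The ratio was 6.07 in Progesterone 2, 21.6 in Progesterone 3 and 7.86 in Placebo 2, and the log2 ratio over the 3 libraries was 2.91 ± 0.24 (adjusted p = 3.70e-06, edgeR). Few UMIs stand behind the progesterone ratios. The level of 3 UMIs was 4.04 and 4.66 CPM in Retnla-high cells of Progesterone 2 and 3, and 0.254 and 0.484 CPM in their C1q-high cells. F13a1 rose by 1.16 ± 0.11 (adjusted p = 1.41e-05) and Maf by 0.61 ± 0.18 (adjusted p = 0.0259), and for Maf the ratio was 1.27, 1.09 and 2.18 in Progesterone 2, Progesterone 3 and Placebo 2.

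Cd163 was higher in Retnla-high cells of all 3 libraries, at 33.7 against 4.90 CPM in Progesterone 2, 66.7 against 2.10 CPM in Progesterone 3 and 252 against 57.6 CPM in Placebo 2. Its log2 ratio of 2.76 ± 0.61 did not pass after adjustment (adjusted p = 0.0579, edgeR), and its ratio ran from 4.38 to 31.8 between libraries. Cbr2 (0.81, adjusted p = 0.0574), Timd4 (1.31, 0.0844) and Folr2 (0.22, 0.300) did not pass either. Stab1 and Selenop had ratios under 1 in all 3 libraries, 0.148 to 0.961 for Stab1 and 0.346 to 0.955 for Selenop, with log2 ratios of -1.16 (adjusted p = 0.330) and -0.83 (0.0768). Without the library pairing 1 member, Mrc1, remained called, and with doublets kept 2 did.

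Retnla-high cells were split further at the C1q cut, and in Placebo 2 all of Lyve1, Folr2, Cbr2, Stab1 and Selenop were more than 10-fold higher in those that also had C1q. In Placebo 2, 201 of the 269 Retnla-high cells were at or over the C1q cut, and they had 376 CPM of Lyve1, 277 CPM of Folr2, 330 CPM of Cbr2, 213 CPM of Stab1 and 692 CPM of Selenop. The 68 Retnla-high cells under the C1q cut had 8.70 CPM of Lyve1, 8.70 CPM of Folr2, 18.3 CPM of Cbr2, 13.9 CPM of Stab1 and 42.6 CPM of Selenop. Mrc1 was less unequal, at 2289 and 1487 CPM. In Progesterone 2 the same split gave 160 and 6.21 CPM of Folr2, 140 and 0 CPM of Cbr2 and 1229 and 1470 CPM of Mrc1, in 29 and 25 cells. These values are a description of cells and were not tested.

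Within C1q-high cells, 6 of 10 members were lower under progesterone and 0 were higher, where 3.03% of all 11664 genes were called lower, 1.79% higher and 4.82% either way. The comparison rests on Progesterone 2 and 3 against Placebo 2, because Progesterone 1 was the only batch 1 library with 10 such cells, and it has 1 residual degree of freedom. Lyve1 had 1.78 and 0.646 CPM in Progesterone 2 and 3, against 35.9 CPM in Placebo 2, and 0.900 CPM in Progesterone 1. That last value is below the level of 3 UMIs, 1.35 CPM. Cd163 had 4.90 and 2.10 CPM in Progesterone 2 and 3, against 57.6 CPM in Placebo 2, and 4.95 CPM in Progesterone 1. All 3 progesterone libraries lay below Placebo 2 in both genes, and the log2 ratios were -4.42 ± 0.34 (adjusted p = 9.14e-15) and -3.79 ± 0.27 (adjusted p = 6.83e-10, edgeR's quasi-likelihood test).

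Mrc1 had 232 and 189 CPM in Progesterone 2 and 3, against 533 CPM in Placebo 2, and fell by 1.32 ± 0.16 on the log2 scale. Folr2 had 87.7 and 73.8 CPM in these progesterone libraries, against 190 CPM in Placebo 2, and fell by 1.22 ± 0.17. F13a1 had 341 and 261 CPM, against 581 CPM in Placebo 2, and fell by 0.94 ± 0.16. Progesterone 1 lay apart for F13a1, at 812 CPM, above Placebo 2. Maf had 78.4 and 64.3 CPM in Progesterone 2 and 3, against 121 CPM in Placebo 2, and fell by 0.74 ± 0.17 (adjusted p = 0.00347, edgeR). Without the Cd209f-led cells described below, the log2 ratios were -3.17 for Lyve1, -3.32 for Cd163, -1.17 for Folr2, -1.06 for Mrc1 and -0.73 for F13a1. Each was smaller in size than with those cells, and Maf, at -0.53, was no longer called.

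Selenop, Stab1, Cbr2 and Timd4 did not pass in C1q-high cells. Selenop had 572 and 475 CPM in Progesterone 2 and 3, against 550 CPM in Placebo 2, and Stab1 had 138 and 115 CPM, against 168 CPM. Their log2 ratios were -0.06 ± 0.16 and -0.40 ± 0.17, and Cbr2 and Timd4 had -1.10 ± 0.75 and 0.10 ± 0.91. Without the batch term 0 members were called, and with macrophages taken by a marker gate in place of clusters 0 of 8 tested were, a gate that also brings Placebo 1 into the fit. The largest sub-cluster of the state was the Adm-led one in Progesterone 1 (44.2% of C1q-high cells), the Fam171b-led one in Progesterone 2 and 3 (28.6% and 24.1%) and the Ptprm-led one in Placebo 2 (22.7%).

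Within Retnla-high cells, 5 of 10 members were lower under progesterone and 0 were higher, where 0.734% of all 7498 genes were called lower, 0.227% higher and 0.96% either way. The libraries were Progesterone 2 with 54 such cells, Progesterone 3 with 49 and Placebo 2 with 269, again with 1 residual degree of freedom. Lyve1 had 10.8 and 13.97 CPM in Progesterone 2 and 3, against 282 CPM in Placebo 2, and Cd163 had 33.7 and 66.7 CPM, against 252 CPM. Lyve1 fell by 4.33 ± 0.31 on the log2 scale (adjusted p = 8.20e-06) and Cd163 by 2.23 ± 0.32 (adjusted p = 0.00509, edgeR). Progesterone 1, left out with 7 cells, had 247 CPM of Lyve1 from the single cell named above.

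Stab1 had 32.4 and 17.1 CPM in Retnla-high cells of Progesterone 2 and 3, against 162 CPM in Placebo 2, and fell by 2.56 ± 0.33 (adjusted p = 0.00135, edgeR). Maf had 99.8 and 69.8 CPM, against 264 CPM in Placebo 2, and fell by 1.53 ± 0.25. F13a1 had 675 and 551 CPM, against 1519 CPM in Placebo 2, and fell by 1.22 ± 0.20. For these 5 genes neither progesterone library reached the placebo level. Mrc1 had 1333 and 922 CPM, against 2083 CPM in Placebo 2, with a log2 ratio of -0.80 ± 0.22 that missed the threshold (adjusted p = 0.128), and Folr2, Selenop, Cbr2 and Timd4 also missed it, at -0.99, -1.16, -2.17 and -2.13.

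Here too the sub-clusters differed. The Cd226-led sub-cluster held 74.1% and 75.5% of Retnla-high cells in Progesterone 2 and 3 and 44.2% in Placebo 2, and the Cd209f-led sub-cluster held 27.9% in Placebo 2, 1 cell in Progesterone 3 and 0 in Progesterone 2. Without the Cd209f-led cells 9 members were tested, with log2 ratios of -2.74 for Lyve1, -1.95 for Cd163 and -1.67 for Stab1. Maf, at -1.19, and F13a1, at -0.89, no longer passed. With a Retnla cut of 2 per 10000, or with no filter on low counts, all 10 members again had negative log2 ratios.

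**Figure D2:**
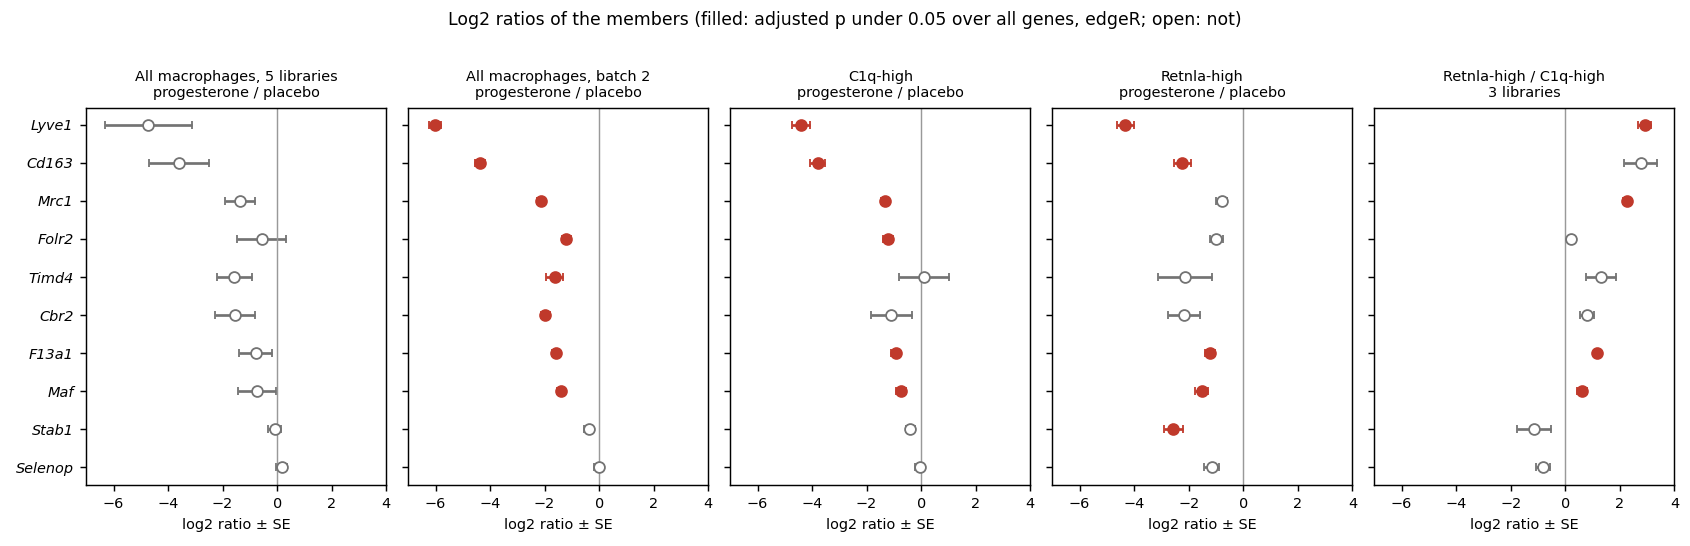
Log2 ratios of the 10 members with standard errors (filled where the adjusted p is under 0.05), for progesterone over placebo in all macrophage-like cells, in batch 2 alone and within each state, and for Retnla-high over C1q-high cells. Lyve1 and Cd163 have the lowest ratios of progesterone over placebo in C1q-high cells (-4.42 and -3.79), and Selenop lies near 0 there (-0.06).

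The difference between states was itself different between treatments for 4 of 10 members, where 1.19% of all 11702 genes were called in either direction, 0.803% higher and 0.385% lower. The interaction of state and treatment was -2.23 ± 0.32 on the log2 scale for Stab1 (adjusted p = 4.20e-09), -1.16 ± 0.22 for Selenop (8.73e-05), 1.48 ± 0.37 for Cd163 (0.00326) and -1.14 ± 0.31 for Cbr2 (0.0263, edgeR's quasi-likelihood test). Stab1 in Retnla-high cells was at 0.234 and 0.148 of its C1q-high level in Progesterone 2 and 3, against 0.961 in Placebo 2. Selenop was at 0.481 and 0.346, against 0.955. The interaction fit has 1 residual degree of freedom and was not run without the Cd209f-led cells. Those cells were 27.9% of Retnla-high cells in Placebo 2, with 1 cell in Progesterone 3. Leaving them out of the Retnla-high fit moved the log2 ratio from -2.56 to -1.67 for Stab1 and from -1.16 to -0.41 for Selenop. Cbr2 moved from -2.17 to -1.38 and Cd163 from -2.23 to -1.95. For Lyve1 and Mrc1 the interaction did not pass (-0.04 and 0.49). DESeq2, keeping doublets, the marker gate and a Retnla cut of 2 each left 0 members called, so this result holds for the main settings and few others.

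Sub-clusters of macrophage-like cells, built without the 10 members, Retnla and the C1q genes, showed where the members were most abundant. A sub-cluster of 110 cells led by Cd209f and Cd209g, lectin receptors, had the highest pooled level of all 10 members among the 13 macrophage-like sub-clusters. It had 883 CPM of Lyve1, 393 CPM of Cd163, 2699 CPM of Mrc1, 448 CPM of Folr2 and 54.1 CPM of Timd4. It also had 598 CPM of Cbr2, 2608 CPM of F13a1, 469 CPM of Maf, 423 CPM of Stab1 and 1222 CPM of Selenop. Of its cells 4 came from Progesterone 2 and 2 from Progesterone 3, and the others from Placebo 2, so it is mostly a single library, and its median of 7109 UMIs per cell was below the 12993 of Placebo 2 macrophage-like cells.

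Its Placebo 2 cells were 16.5% of the macrophage-like cells of Placebo 2 and held 71.8% of their Lyve1 UMIs (1012 of 1410). They held 59.4% of Timd4, 45.8% of Cbr2, 34.4% of Stab1 and 33.2% of Cd163 UMIs. For the other 5 members the share was 25.6% (Mrc1) to 31.0% (Maf). The 6 such cells of the progesterone libraries had 0 Lyve1 UMIs.

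A sub-cluster of 138 cells led by Msx3 and Fabp4, 93 of them from Placebo 2 had 125 CPM of Lyve1, 259 CPM of Cd163 and 1528 CPM of Mrc1. Pooled levels depend on each library's share of a sub-cluster: among Placebo 2 cells alone the Cd209f-led cells were still the highest macrophage-like sub-cluster for all 10 members. Inside the Msx3-led cells Lyve1 had 16.3 and 42.6 CPM in Progesterone 2 and 3, against 153 CPM in Placebo 2, and Cd163 had 36.7 and 85.3 CPM, against 351 CPM. The 266 cells led by Cd226 and Mucl1, 74.4% of them Retnla-high, had Mrc1 at 1208 CPM with Lyve1 at 2.21 CPM, Stab1 at 12.8 CPM and Selenop at 104.2 CPM. The 276 cells led by Ptprm, 96.4% of them C1q-high, had less Mrc1, at 239 CPM, and more Stab1 and Selenop, at 227 and 739 CPM. They had Folr2 at 286 CPM and Cbr2 at 136 CPM, and Lyve1 was low there too, at 2.64 CPM. Cells led by Adm and Nos2 had Mrc1 at 72.1 CPM and F13a1 at 932 CPM, both pooled over libraries.

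Within sub-clusters the members differed in how far the treatments lay apart. In the Ptprm-led cells, Folr2 had 250 and 303 CPM in Progesterone 2 and 3 and 329 CPM in Placebo 2, and Stab1 had 222 and 270 CPM and 210 CPM. In the Cd226-led cells, Maf had 59.0 and 52.8 CPM in Progesterone 2 and 3 and 63.6 CPM in Placebo 2, and Lyve1 had 1.28 and 3.45 CPM and 2.22 CPM, from 1, 3 and 6 UMIs. Cd163 in these Cd226-led cells was at 28.2 and 25.3 CPM in Progesterone 2 and 3, against 84.6 CPM in Placebo 2. In the 105 cells led by the cell cycle genes Hist1h1b and Hist1h3c the treatments lay far apart, with Lyve1 at 0 and 0 CPM in Progesterone 2 and 3 and 262 CPM in Placebo 2, Mrc1 at 336 and 330 CPM and 2097 CPM, and Cd163 at 2.41 and 11.3 CPM and 211 CPM. The states of these Hist1h1b-led cells differed as well. In Placebo 2, 24 were Retnla-high and 2 were C1q-high, against 5 and 43 in Progesterone 2 and 2 and 24 in Progesterone 3. These sub-cluster values, and the part of the states in them, were not tested.

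**Figure D3:**
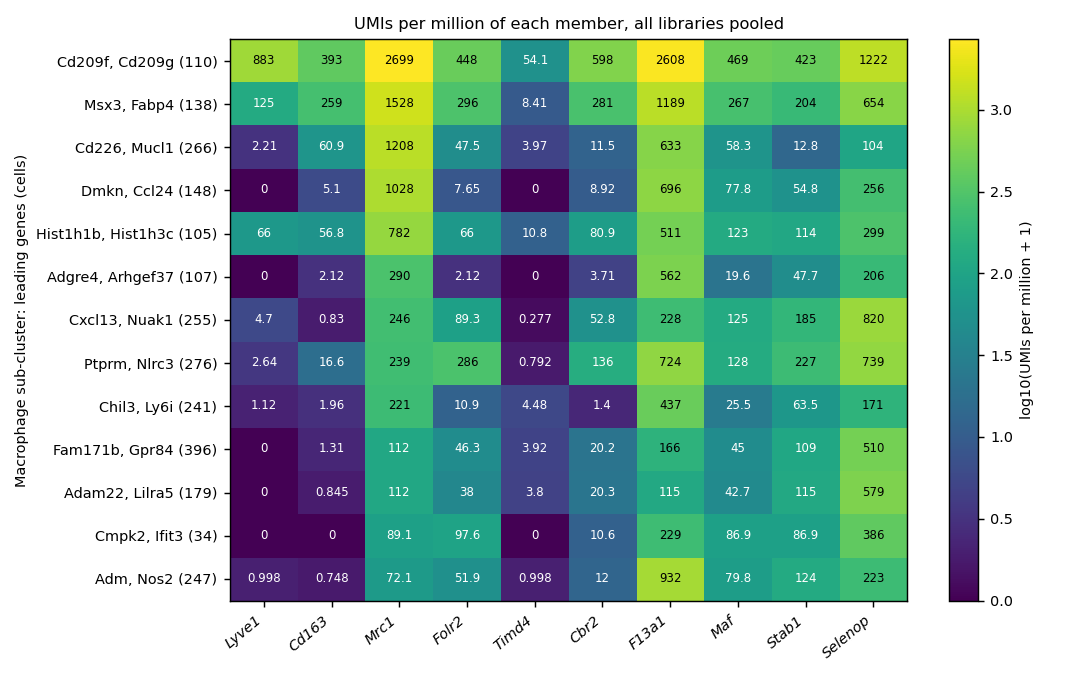
Levels of the 10 members (CPM as printed, colour on a log10 scale) in each macrophage-like sub-cluster, all libraries pooled, named by its leading genes with its cells in brackets. The Cd209f-led sub-cluster is highest for all 10 members, with 883 CPM of Lyve1 and 2699 CPM of Mrc1.

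In single cells thinned to 3000 UMIs, many members at once were found mainly in Placebo 2. At least 5 of the 10 members were present in 4.48% of 290 cells of Progesterone 1, 7.11% of 956 cells of Progesterone 2 and 4.79% of 584 cells of Progesterone 3, against 0 of 15 in Placebo 1 and 162 of 592 in Placebo 2 (27.4%). Within Retnla-high cells they were 6 of 53 and 4 of 45 in Progesterone 2 and 3, against 116 of 246 in Placebo 2. Within C1q-high cells they were 62 of 798 and 24 of 467 in Progesterone 2 and 3, against 43 of 257 in Placebo 2. A cell had 1.77, 2.04 and 1.89 members on average in the progesterone libraries, against 1.87 and 3.30 in Placebo 1 and 2. Thinning left out 4, 13 and 9 shallower cells of the progesterone libraries and 0 and 39 of the placebo libraries, and 1 cell, in Placebo 2, had all 10 members.

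**Figure D4:**
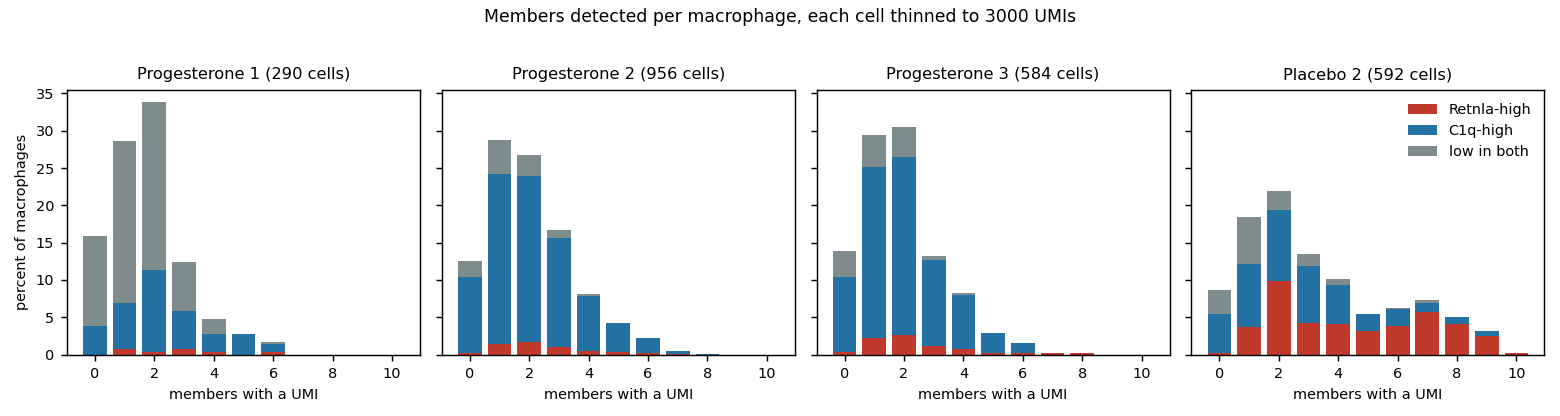
Number of the 10 members with a UMI per macrophage-like cell, each cell thinned to 3000 UMIs, as a percentage of the cells of a library and stacked by state, for the 4 libraries with over 100 cells. Placebo 2 reaches furthest, with 27.4% of cells at 5 members or more, against 4.48% to 7.11% in the progesterone libraries.

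Lyve1 and Cd163 marked few cells outside Placebo 2. After thinning, a Lyve1 UMI was present in 0.345%, 0.314% and 0.342% of macrophage-like cells of Progesterone 1, 2 and 3, against 0 of 15 and 14.9% in Placebo 1 and 2, and in 0.101% of epithelial cells of Placebo 2. The progesterone shares stand for 1, 3 and 2 cells, and the epithelial shares in the same libraries were 0%, 0% and 0.0290%. Cd163 was present in 0.345%, 1.57% and 1.54% in the progesterone libraries, against 0 of 15 and 17.6% in the placebo libraries. Selenop was present in 41.4%, 62.9% and 58.4% in the progesterone libraries, against 6 of 15 cells and 52.7% in the placebo libraries, and Stab1 in 24.3% to 28.2% of cells of all 5 libraries. Before thinning, Lyve1 and Cd163 were found together in 1 of 294, 4 of 969 and 3 of 593 cells of Progesterone 1, 2 and 3, against 0 of 15 and 82 of 631 cells of Placebo 1 and 2, and Timd4, Lyve1 and Folr2 together in 1, 1 and 0 cells, against 0 and 27.

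Members were found together in the same cells more often than the product of their shares. In Placebo 2 this was so for all 45 pairs, with a median ratio of 1.61. Lyve1 and Cbr2 shared 72 cells where the product of their shares gives 20.4, and Lyve1 and Cd163 shared 53 where it gives 15.5. Of the 88 cells of Placebo 2 with Lyve1, 100% had Mrc1, 98.9% had F13a1, 95.5% had Selenop, 81.8% had Cbr2 and 60.2% had Cd163 (95% interval 49.2 to 70.5). Timd4 was in 7 of the 88, or 7.95%.

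In Progesterone 2 and 3 the closest pair was another. Folr2 and Cbr2 had the highest phi coefficient, a correlation of presence across cells, in Progesterone 2 (0.28) and Progesterone 3 (0.26), while in Placebo 2 Lyve1 and Cbr2 had the highest (0.58) and Folr2 and Cbr2 had 0.44. Cells with Folr2 also had Cbr2 in 41 of 137 and 17 of 85 cases in Progesterone 2 and 3, against 89 of 169 in Placebo 2. Among pairs expected in at least 1 cell, 20 of 20, 32 of 37 and 23 of 31 were above the product in Progesterone 1, 2 and 3. Cells of a library share their preparation and their mixture of states, and in Placebo 2 the pair of Lyve1 and Cbr2 had a phi of 0.59 within Retnla-high cells and 0.42 within C1q-high cells. Within Retnla-high cells of Placebo 2 phi was above 0 for 43 of 45 pairs, and it was -0.01 for Mrc1 and Folr2 and -0.03 for Mrc1 and Stab1. Within C1q-high cells it was above 0 for 42 of 45 pairs, and the 3 pairs below 0 all hold Timd4 and were each expected in fewer than 1 cell. The median phi in C1q-high cells was 0.08 and 0.03 in Progesterone 2 and 3, against 0.19 in Placebo 2. In these progesterone cells 37 and 33 of 45 pairs were above 0, and every pair below 0 holds Lyve1, Cd163 or Timd4. Those genes were seen in 2, 10 and 8 C1q-high cells of Progesterone 2 and in 1, 2 and 3 of Progesterone 3. In Placebo 2 they were seen in 14, 20 and 3. The part of such low counts in the lower medians was not tested. In cells low in both Retnla and C1q, 19 of 28 pairs were above 0 in Progesterone 1 and 10 of 28 in Progesterone 2.

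**Figure D5:**
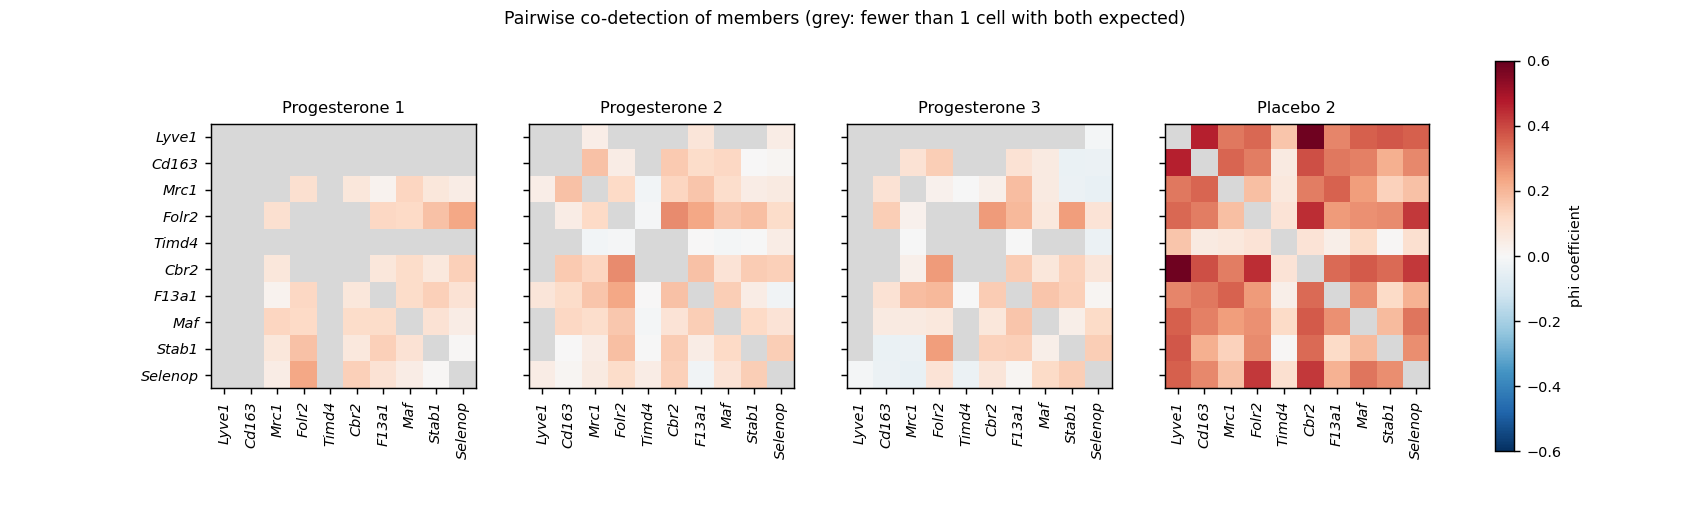
Phi coefficient of each pair of members across single macrophage-like cells thinned to 3000 UMIs, by library, with red above 0, blue below 0 and grey for pairs expected in fewer than 1 cell and for the diagonal. Placebo 2 has the highest value, 0.58 for Lyve1 and Cbr2, and Progesterone 2 and 3 reach 0.28 and 0.26 for Folr2 and Cbr2.

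Across single cells the gene most like Lyve1, Cd163, Cbr2 and F13a1 was in each case another member. For every remaining member the most alike gene was not a member. Likeness was the mean Pearson r of log-scaled levels within 4 libraries, over 7346 genes, and cells of a library share depth and preparation. Cbr2 was the gene most like Lyve1 (0.37), Cd163 (0.33) and F13a1 (0.34), and Folr2 was most like Cbr2 (0.53). Lyve1 was next most like Ltc4s (0.32), a leukotriene-forming enzyme, and Folr2 most like C4b (0.54), a complement component. Mrc1 was instead most like the chemokine Ccl6 (0.50), Cfp, the complement factor properdin (0.49), and the chemokine Ccl9 (0.46). Stab1 and Maf shared Gas6 (0.40 and 0.37), a bridging ligand for the clearance of dying cells, and Lgmn, a lysosomal protease. Selenop was most like Lgmn (0.55), the lysosomal protease Ctsb (0.54) and C1qc (0.54). The values for Lyve1 varied between libraries, with Ltc4s from -0.01 to 0.70.

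Further genes of the resident programme went the way of the members within states. This list, like the members, was chosen with earlier results of these data known, so its counts are no independent support. It holds Cd209f and Cd209g, the leading genes of the sub-cluster that came mostly from Placebo 2. Of the 24 genes of that list, 23 were tested in C1q-high cells and 14 were lower under progesterone and 0 higher, with a median log2 ratio of -1.27 against 0.01 over all genes, of which 3.03% were called lower. The scavenger receptor Cd36 had 37.5 and 21.0 CPM in Progesterone 2 and 3, against 243 CPM in Placebo 2, and fell by 2.999 ± 0.30. Cd209d, a lectin receptor, had 0.507 and 0.484 CPM in these progesterone libraries, against 6.96 CPM in Placebo 2, and fell by 3.13 ± 0.66. Cd209f and Cd209g were at or near 0 in the progesterone libraries, with 15.0 and 14.2 CPM in Placebo 2. In Retnla-high cells 8 of 20 tested were lower and 1 higher, where 0.734% of all genes were called lower and 0.227% higher. Gas6 had 32.4 and 18.6 CPM in Progesterone 2 and 3, against 259 CPM in Placebo 2, and fell by 3.19 ± 0.30, while Ccl24, an eosinophil-attracting chemokine, had 392.3 and 568 CPM, against 88.5 CPM, and rose by 2.52 ± 0.29. Without the Cd209f-led cells the median log2 ratio of the list was -0.83 over 20 genes tested in C1q-high cells. In Retnla-high cells it was -0.13 over 17 genes, and the median over all genes was 0.01 in both fits.

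Between states the same list was divided, with 9 of 22 higher and 5 lower in Retnla-high cells. Clec10a and Mgl2, galactose-binding lectins, were higher by 3.28 ± 0.21 and 2.64 ± 0.21 on the log2 scale, and the endothelin receptor Ednrb by 2.85 ± 0.21. The growth factor Igf1 was lower by a log2 ratio of -2.03 ± 0.17, and Mertk and Axl, receptors that clear dying cells, by -1.81 ± 0.17 and -1.53 ± 0.18. These shares stand against 10.5% of all genes called higher and 11.1% called lower in this comparison. Of 12 lipid-associated genes 0 were higher and 9 were lower, Spp1 at -4.04, Apoe at -3.83 and Trem2 at -2.38 among them. Of 13 monocyte-derived genes 6 were higher, Ifitm6 (5.27) and Vcan (3.77) leading, and 2 were lower, Ly6c2 (-4.55) and Itgal (-1.62).

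Among the tested regulators of transcription, Bach1 (0.77), Klf4 (0.53), Nr3c1 (0.50), the glucocorticoid receptor, and Cebpb (0.46) were higher in Retnla-high cells, and Irf8 (-1.62) and Tcf4 (-1.23) were lower. Under progesterone within C1q-high cells, Klf4 was the called regulator of 15 tested, with 475 and 443 CPM in Progesterone 2 and 3, against 855 CPM in Placebo 2 (-0.89 ± 0.15). Of 14 interleukin-4 responsive genes in C1q-high cells, 6 were lower and 0 higher, with the transcription factor Egr2 at 21.7 and 21.8 CPM in Progesterone 2 and 3, against 102 CPM in Placebo 2 (-2.20 ± 0.18), and arginase, Arg1, at 223 and 282 CPM, against 640 CPM (-1.33 ± 0.15). In Retnla-high cells 0 of 11 were lower and Ccl24 was higher. Of 9 scavenger receptors tested in C1q-high cells, 3 were lower, Cd36, Msr1 (-0.76) and Colec12 (-0.64).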

How the data were processed

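The authors deposited raw UMI counts by gene and cell barcode, from Cell Ranger 8.0.1 per the file headers, while version 7.0.0 and mm10 stand in the submitters' processing notes. Members and gene lists were chosen with earlier results of these data known. Cells with at least 250 genes were kept, the cells with the highest Scrublet scores were removed at 0.8% per 1000 barcodes (1.79% to 4.68% per library), and clusters (scanpy 1.11.5; 2000 variable genes, 30 components, 20 neighbours, resolution 1), built without the members, Retnla and the C1q genes, were named from fixed markers. A macrophage-like sub-cluster was removed where another class's marker score came within 0.5 of its macrophage score, which took out the Clec9a-led one and the one with Ccr7 (macrophage score 3.58, dendritic score 3.44); the Adm-led and the Adam22-led sub-clusters kept in the class each had 1 marker of another class (Cd28, Cox6a2) and 0 of their own among their top 10 genes. UMIs were summed per library and state, with at least 10 cells, and tested with edgeR 4.0.16 (TMM, quasi-likelihood, Benjamini-Hochberg over all genes, threshold 0.05, batch from the titles or library as a term); DESeq2 1.42.0 was an alternative. CPM is a gene's UMIs scaled to the total of the summed cells. Scripts were tested on simulated data. The titles give a batch and no litter, animal or day shared by number, so batch was the only block. Named genes are all members, up to 4 called genes in each direction per list with the largest log2 ratio, and the 3 genes most like each member; some are given as counts only, and 1 gene is not reported here. Intervals are exact binomial ones at 95% and cover counting error only. Coordinates are GENCODE M21 on GRCm38, and promoter sequences are RefSeq's on GRCm38.p6.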

Additional observations from a re-analysis of the deposited data

Results flagged for a closer look

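For 4 members the difference between macrophage states was not the same in progesterone and placebo tumours, by the interaction term of edgeR's fit over all genes. The log2 difference between the states in progesterone minus that in placebo was -2.23 for Stab1, -1.16 for Selenop, -1.14 for Cbr2 and 1.48 for Cd163. In Retnla-high cells Stab1 was at 32.4 and 17.1 CPM in Progesterone 2 and 3, against 162 CPM in Placebo 2, while in C1q-high cells it was at 138 and 115 CPM, against 168 CPM. Selenop was at 275 and 164 CPM, against 526 CPM, in Retnla-high cells and at 572 and 475 CPM, against 550 CPM, in C1q-high cells. Cbr2 was at 79.5 and 21.7 CPM, against 249.98 CPM, in Retnla-high cells and at 56.3 and 26.2 CPM, against 91.6 CPM, in C1q-high cells. Cd163 was below Placebo 2 in both states, more so in C1q-high cells. A single placebo library carries the placebo side of all 4 values. The interaction was not refitted without the Cd209f-led cells, which came mostly from Placebo 2.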

How the results depend on the processing

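Genes called for progesterone over placebo in the class were 135, and 846 with no filter on low counts, 12 with doublets kept, 0 by the marker gate (1491 at an unadjusted p under 0.05, edgeR; 0 of 10 members), 19 after thinning to the lowest total, 2296 in batch 2 alone, 1646 in batch 2 without the Cd209f-led cells and 76 to 2121 leaving out 1 library each (869 without Placebo 2, 2121 without Progesterone 1, 2043 without Placebo 1). Without the batch as replicate block, class calls went to 0 (475 at an unadjusted p under 0.05, edgeR; DESeq2 with the block calls 125) and C1q-high calls to 1, where Timd4 had -0.24, and the states fit without the library block called 1843 genes. The Retnla-high fit lies within batch 2, so the block changes nothing there, and the interaction was not run without it. Between states 2387 genes became 1386 with doublets kept, 564 by the gate and 1461 to 2019 leaving out a library. C1q-high calls, 562, were 75 by DESeq2, 1082 with doublets kept, 33 by the gate and 737 without Progesterone 1, the one library that could be left out; other such fits had no residual degrees of freedom or no contrast. Retnla-high calls, 72, were 32 by DESeq2, 236 unfiltered, 134 with doublets kept, 44 by the gate, 281 and 193 at Retnla cuts of 2 and 10, and 47 without the Cd209f-led cells. Interaction calls, 139, were 14, 12 and 0 by DESeq2, with doublets and by the gate (256 at an unadjusted p under 0.05, edgeR), and 1 and 88 at the Retnla cuts. The share of Lyve1 cells with Cd163 was 60.2% and, at 1500 UMIs, 42.3%.

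Reversed values in the class were Folr2 by DESeq2 (0.60) and the gate (0.53), Stab1 by the gate (0.43) and in batch 2 without the Cd209f-led cells (0.010), and Selenop in batch 2 (-0.026). Leaving out a library gave -2.14 to -0.05 for Mrc1, -4.36 to 4.89 for Cd163, -1.20 to 7.34 for Folr2, -5.99 to 4.71 for Lyve1, -1.41 to 1.99 for Maf, -1.63 to 1.44 for Timd4, -1.97 to 1.03 for Cbr2, -1.60 to 0.52 for F13a1, -0.38 to 0.59 for Stab1 and -0.023 to 0.47 for Selenop, and -0.035 to 1.80 for Timd4 between states. In C1q-high cells Timd4 turned by DESeq2 (-0.023) and at a Retnla cut of 10 (-0.47), and F13a1 (0.088), Stab1 (0.17) and Selenop (0.20) by the gate. In the interaction Mrc1 turned at a Retnla cut of 2 (-0.045), F13a1 at 10 (0.0012), and Lyve1 by DESeq2 (0.44), with doublets (1.48), by the gate (1.79) and at both cuts (0.30 and 1.17). The causes were not tested.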

Other observations

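Cells low in both Retnla and C1q made up 65.3%, 11.1% and 12.8% of macrophage-like cells in Progesterone 1, 2 and 3, against 66.7% and 15.5% in Placebo 1 and 2, so the batch 1 libraries stood together. In these cells F13a1 stayed abundant, at 825, 573 and 267 CPM in the progesterone libraries, against 760 and 614 CPM in the placebo libraries. Folr2 was low there in every library, at 10.7, 11.9 and 12.9 CPM, against 0 and 23.7 CPM, and Cbr2 was at 3.11, 2.54 and 4.69 CPM, against 0 and 11.85 CPM. These cells were part of the sums over all macrophage-like cells, and member levels within them were not tested apart.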
